A study of Mus musculus with 14 samples.

Results

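The effect of the Rheb knockout in microglia of mice given LPS was measured by setting 4 KO LPS libraries against 4 WT LPS libraries, which are 8 of the 14 RNA-seq libraries of the study. The libraries were chosen by their titles and treatment labels. KO mice were Rheb F/F mice, with loxP sites in both Rheb alleles, that also carried Tmem119-cre ER, a tamoxifen-inducible Cre driven by the microglial gene Tmem119. WT mice were Rheb F/F without Cre, so the floxed alleles were shared and the Cre allele was not. Both groups received tamoxifen and, at 8 weeks of age, 4 daily intraperitoneal injections of LPS at 1.0 mg/kg, and the design describes female mice. Microglia were taken from the brain with magnetic beads. The other 6 libraries, 3 KO PBS and 3 WT PBS, had PBS injections in place of LPS and entered the fit for the estimate of the spread. An effect of Cre or of the Tmem119 allele cannot be told apart from that of Rheb loss. Whether each library is a different mouse is not stated in the labels, and the p-values therefore reflect only how these libraries vary.

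Rheb is a small GTPase of the lysosomal surface that activates the kinase complex mTORC1. This complex promotes the making of ribosomes and the translation of mRNAs that begin with a pyrimidine tract (TOP mRNAs), and it holds back TFEB, a transcription factor of lysosomal genes. Microglia are the resident macrophages of the brain. At rest they express a homeostatic set of genes such as Tmem119 and P2ry12, and LPS, which they sense through TLR4, lowers that set and induces cytokines and interferon-stimulated genes.

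The values are TPM, a relative abundance of transcripts in which a gene's reads are divided by its length and scaled to the same total in every library. Reads recovered from the TPM numbered 7998451 to 21754841 in the KO LPS libraries and 19289742 to 32304000 in the WT LPS libraries, KO LPS 4 being the shallowest. The microglial markers P2ry12 (1032 to 1696 TPM in KO LPS, 1312 to 2257 TPM in WT LPS), Cx3cr1 (1389 to 2556 and 1810 to 2640 TPM) and Csf1r (3030 to 3904 and 3392 to 3935 TPM) were high in all 8 libraries. Xist was present in each of them (354 to 574 TPM in KO LPS, 255 to 329 TPM in WT LPS), whereas the PBS libraries held at most 0.147 TPM, against the stated sex. 4 libraries stood apart. KO LPS 3 held pituitary hormone transcripts, with growth hormone (Gh) at 19672 TPM against at most 1.07 TPM in the other 7, so the calls are given again without it, and 1 WT PBS library held it at 78126 TPM. WT LPS 3 was high in interferon-stimulated and cytokine genes. In WT LPS 4 the short RNA feature Gm23935 reached 153781 TPM, against 40440 to 73417 TPM in the other 7, and erythroid markers summed to 600 TPM, against 11.8 to 38.2 TPM in the others.

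Rheb itself was lower in KO libraries without passing the test. It stood at 25.5, 22.9, 23.1 and 19.5 TPM in the 4 KO LPS libraries and at 31.8, 32.5, 33.6 and 25.1 TPM in the 4 WT LPS libraries. The groups overlapped by a small margin, since the highest KO library lay just above WT LPS 4. The KO mean was 73.9% of the WT mean, with a log2 fold change of -0.42 ± 0.11 (SE) and an adjusted p of 0.11 by limma. The exact two-sided permutation test over the 8 libraries gave p = 0.0571, where 0.0286 is the smallest that 4 against 4 allow. Omitting KO LPS 3 gave -0.43 with an adjusted p of 0.218 (limma). With scaling by median of ratios, which sets the typical gene level equal between libraries, Rheb was called (-0.51, adjusted p = 0.0407, limma). In bulk RNA fewer cells of a type and less RNA per cell cannot be told apart, here or in any result below.

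Genes around Rheb in its pathway did not pass the test. Rhebl1, the paralog of Rheb, stood at 3.59, 3.77, 4.58 and 4.38 TPM in KO LPS and at 4.06, 3.96, 1.65 and 1.85 TPM in WT LPS, with overlap (adjusted p = 0.557, limma). Mtor, the kinase subunit (log2 fold change 0.06), and Rptor, which recruits its substrates (-0.13), both overlapped between the groups. Of the 24 measured members of the Rheb, TSC and mTORC1 list, 0 were called by limma (3 at an unadjusted p under 0.05, and 1, Prr5l, by voom). Prr5l, which binds the sister complex mTORC2, had the smallest p of the list, with 15.7, 11.7, 12.4 and 8.95 TPM in KO LPS and 19.6, 27.1, 22.1 and 25.3 TPM in WT LPS (log2 fold change -0.91, adjusted p = 0.06, limma). Its groups did not overlap. Of the 30 measured genes of Ragulator, the Rag GTPases and nutrient sensing, 0 were called by limma and by voom (2 at an unadjusted p under 0.05). Limma called 0.497% of all genes, so 0 calls in lists this short are near that share. An unadjusted p under 0.05 was found for 11.7% of all genes.

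Across all 18724 genes tested, limma called 93 (0.497%) at an adjusted p under 0.05. Of these, 48 were higher in KO LPS (0.256%) and 45 were lower (0.24%). Cytosolic ribosomal proteins made up 21 of the 48 rises. The most abundant falls were Cst3, Ctsd, Itm2b, Fcrls and Tmem119, 5 genes with means of 1733 to 11874 TPM in WT LPS. All 93 separated the 4 KO from the 4 WT libraries without overlap, which 6.18% of all genes did, 4.22% with KO higher and 1.96% with KO lower. Without KO LPS 3 the calls were 18 (0.0961%), of which 6 were higher (0.032%) and 12 lower (0.0641%). Of these, 17 were among the 93. All 93 kept their sign, which the lack of overlap fixed in advance. In that smaller set 5.12% of all genes separated the groups with KO higher and 2.73% with KO lower. A fit of the 8 LPS libraries alone called 0 (1827 at an unadjusted p under 0.05, smallest adjusted p = 0.11, limma). The calls above used the spread estimated over all 14 libraries. At an unadjusted p under 0.05, the share of all genes was 11.7%, and 3.94% with KO lower, which is the background for the unadjusted counts of the gene lists. Voom on the recovered reads called 307 (1.64%), including 89 of the 93. The limma and voom shares over all genes are the background for the call counts of the gene lists. Scaling by median of ratios called 172, with 27 higher and 145 lower, a split far from the 48 and 45 of the TPM as deposited. That scaling moved the median of all genes to -0.01, against 0.07 as deposited.

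**Figure D1:**
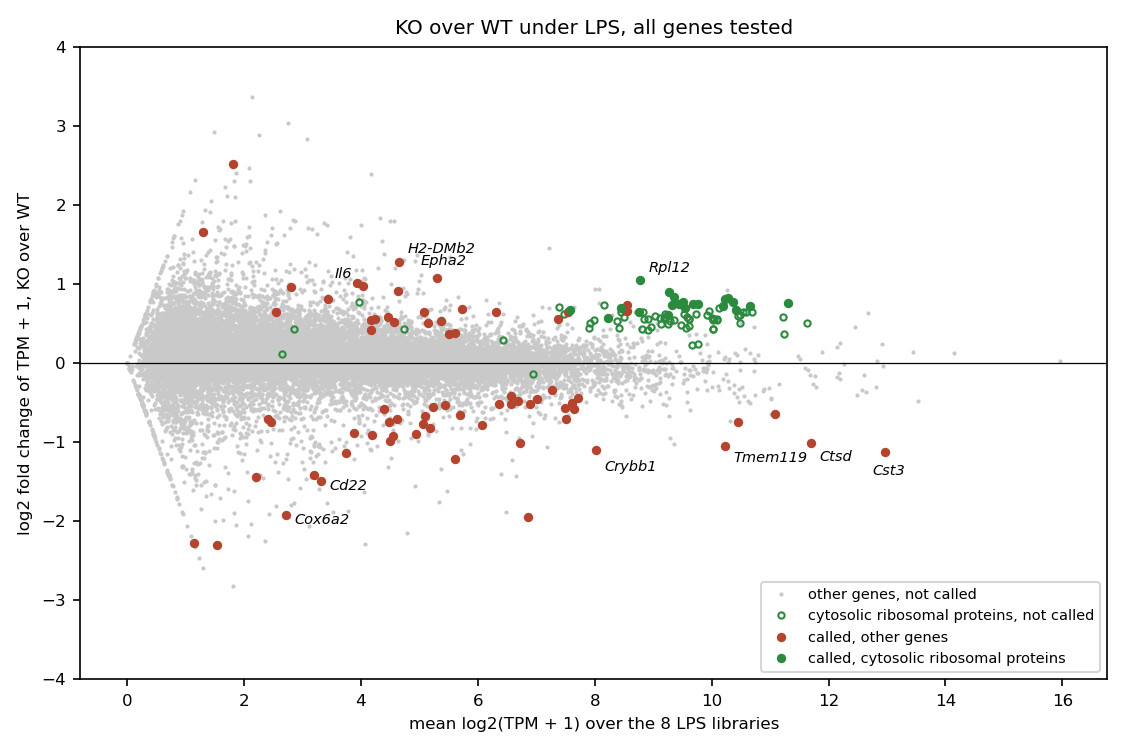
Log2 fold change of TPM + 1, KO over WT under LPS, against the mean log2(TPM + 1) of the 8 LPS libraries for the 18724 genes tested. Filled points are the 93 called genes, and green marks cytosolic ribosomal proteins, which lie as a band above 0 at high expression, while Cst3, Ctsd and Tmem119 lie below 0.

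The 17 genes called with and without KO LPS 3 were 12 falls and 5 rises, and 14 of the 17 were called whichever of the 8 LPS libraries was left out. Cd22, an inhibitory receptor for sialic acid, fell to 4.44, 3.36, 5.54 and 7.01 TPM in KO LPS, against 16.1, 16.0, 15.7 and 15.2 TPM in WT LPS (log2 fold change -1.5 ± 0.17, adjusted p = 0.00857, limma). Its 4 WT libraries were nearly level, and every KO library lay far below the lowest of them. Cd22 is also a B cell gene, and 2 of the 6 measured B cell markers, Cd79b (-0.60) and Ighm (-0.65), had an unadjusted p under 0.05 (adjusted p of 0.154 and 0.21, limma). Of the 6 markers, 3 had a negative and 3 a positive log2 fold change. The B cell marker sums overlapped, at 273 to 406 TPM in KO LPS and 212 to 479 TPM in WT LPS, and the part of B cells in the Cd22 result was not tested. H2-Ob, a chain of the H2-O molecule that restrains peptide loading of MHC class II, fell to 10.7, 8.52, 8.95 and 11.1 TPM in KO LPS, against 19.4, 21.1, 17.0 and 18.5 TPM in WT LPS (-0.89 ± 0.11, adjusted p = 0.0102, limma). Anapc15, a subunit of the anaphase-promoting complex, fell to 10.1, 7.08, 7.59 and 7.73 TPM in KO LPS, against 22.4, 21.6, 15.04 and 17.7 TPM in WT LPS (-1.14 ± 0.15). In both genes a clear gap separated the highest KO from the lowest WT library.

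Itga6, the laminin-binding integrin chain, fell to 78.3, 50.3, 88.4 and 83.7 TPM in KO LPS, against 123, 139, 166 and 173 TPM in WT LPS (-1.01 ± 0.16). Ptgfrn, an immunoglobulin-superfamily partner of tetraspanins, had 20.2, 12.9, 16.7 and 14.7 TPM in KO LPS and 32.7, 32.0, 32.7 and 27.6 TPM in WT LPS (-0.93 ± 0.13). The tetraspanin Tspan7 (-0.66), the kinase Pim2 (-0.99) and Rcbtb2 (-0.90) also fell. With each of the 8 LPS libraries omitted in turn, Pim2 passed in 3 fits and Itga6 in 7, while Ptgfrn, Tspan7 and Rcbtb2 passed in all 8. Tmem119 is described with the homeostatic genes, and the remaining 3 falls were short RNA features with model names only, which included Gm22655 at 72.2, 39.8, 77.0 and 52.0 TPM in KO LPS and 260, 279, 173 and 213 TPM in WT LPS.

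Among the 5 rises that held, Il6, an inflammatory cytokine gene, stood at 25.3, 20.6, 20.1 and 22.8 TPM in KO LPS and at 9.72, 9.75, 14.6 and 9.69 TPM in WT LPS (log2 fold change 0.97 ± 0.15, adjusted p = 0.0175, limma). Its means were no higher under LPS, at 22.2 TPM in KO and 10.9 TPM in WT, than under PBS, at 24.5 and 15.3 TPM. Under PBS its log2 fold change was 0.66 (adjusted p = 0.0818, limma). Epha2, an ephrin receptor kinase, stood at 60.2, 53.6, 46.9 and 65.8 TPM in KO LPS and at 31.7, 26.5, 21.2 and 25.9 TPM in WT LPS (1.08 ± 0.14). Rai1, a chromatin-associated regulator, rose by a smaller step, with 26.1, 24.6, 26.5 and 27.5 TPM in KO LPS and 17.3, 16.3, 17.4 and 17.6 TPM in WT LPS (0.58 ± 0.08). In each of the 3 the lowest KO library lay well above the highest WT library, WT LPS 3 being the highest for Il6. The others were Rpl12 and H2-DMb2, described with their groups below.

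**Figure D2:**
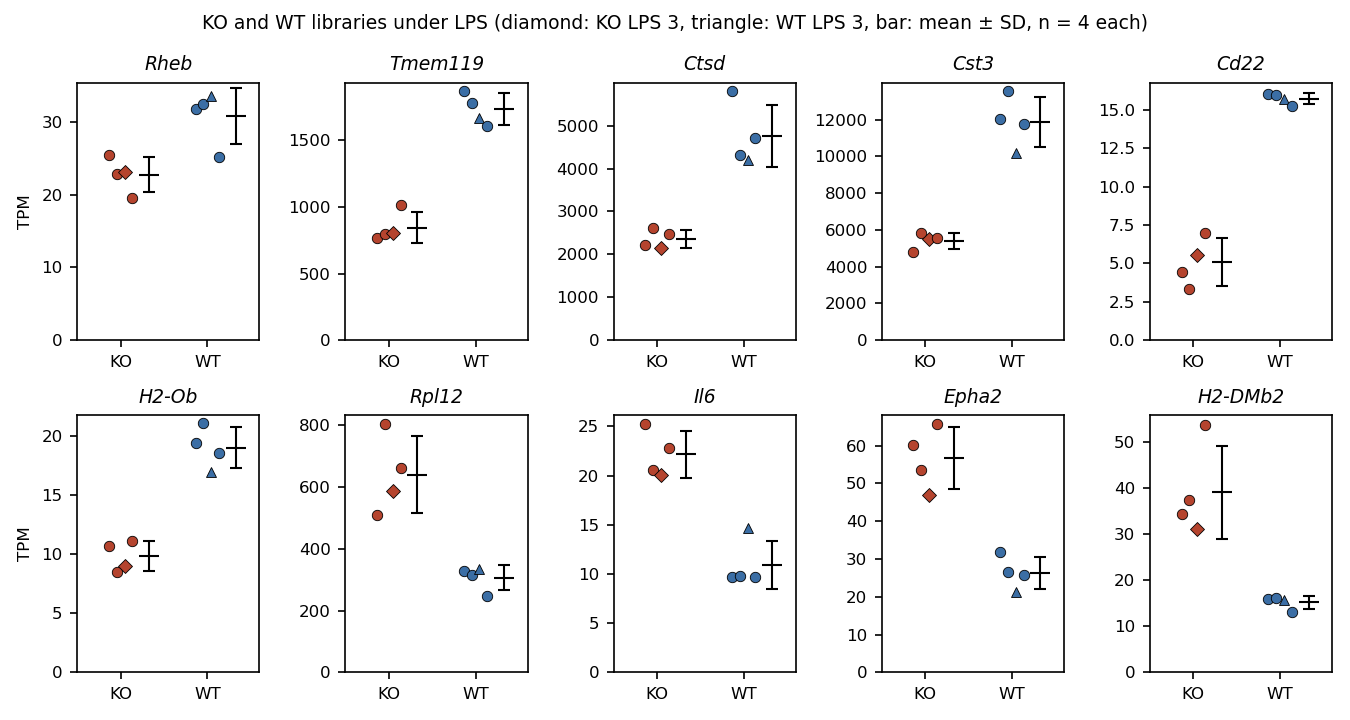
TPM of 10 genes in each of the 4 KO LPS libraries (left) and the 4 WT LPS libraries (right), with the mean and SD as a bar. The KO diamond is KO LPS 3, the WT triangle is WT LPS 3, and the groups separate for every gene shown except Rheb.

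**Figure D3:**
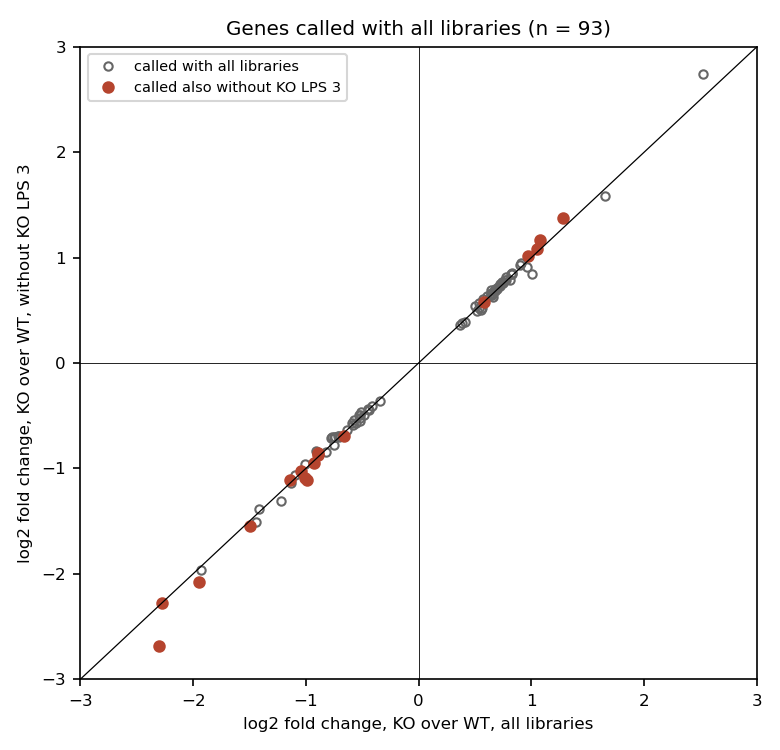
Log2 fold changes of the 93 called genes, KO over WT under LPS, with all libraries (horizontal) and without KO LPS 3 (vertical). Filled points are the 17 genes called both ways, and the points follow the diagonal, the largest distance being 0.38. Both fits share all other libraries.

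Homeostatic genes of microglia were lower as a list, with 50 of 61 measured members at a negative log2 fold change and a median of -0.25, beside 0.07 over all genes. Limma called 6, all lower, beside 0.24% of all genes, and 14 members separated the groups with KO lower, beside 1.96% of all genes. Tmem119 fell to 764, 794, 801 and 1016 TPM in KO LPS, against 1872, 1783, 1670 and 1608 TPM in WT LPS (log2 fold change -1.04 ± 0.12, adjusted p = 0.00857, limma). The groups were far apart, and Tmem119 is also the locus of the Cre driver, so this fall and the allele cannot be told apart. Crybb1, a crystallin gene used as a microglial marker, fell to 155, 169, 163 and 228 TPM in KO LPS, against 509, 357, 286 and 398 TPM in WT LPS (-1.10 ± 0.18). Crybb1 lies on chromosome 5, as Tmem119 does, and the part of the Cre allele in its fall was not tested. Fcrls, an Fc receptor-like scavenger receptor, had 1081, 1231, 982 and 1033 TPM in KO LPS and 1647, 1788, 1794 and 2026 TPM in WT LPS (-0.75 ± 0.13).

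The other 3 homeostatic falls were Cst3, the protease inhibitor Serpine2 (-0.78) and Tgfbr2, the type II receptor for TGF-beta (-0.44). Tgfbr2 had 175, 171, 183 and 187 TPM in KO LPS and 252, 274, 224 and 223 TPM in WT LPS, a small but complete separation. Voom called 13 members, all lower, and median-of-ratios scaling 11, all lower. P2ry12 (-0.42, adjusted p = 0.405) and Cx3cr1 (-0.31, adjusted p = 0.527, limma) overlapped between the groups. Without KO LPS 3 the median of the list was -0.24 and Tmem119 was the 1 member called. Leaving out any 1 LPS library gave medians of -0.30 to -0.19. Summed over the list, the KO LPS libraries held 51412, 54860, 52271 and 63582 TPM and the WT LPS libraries 77820, 78560, 68081 and 69312 TPM, without overlap. The separation of these sums depends on Cst3, which is also counted among the lysosomal proteases and cystatins.

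Genes of lysosomal protein breakdown contributed the most abundant falls. Cst3, which encodes cystatin C, a secreted inhibitor of cysteine cathepsins, fell to 4789, 5815, 5481 and 5570 TPM in KO LPS, against 12015, 13555, 10179 and 11748 TPM in WT LPS (log2 fold change -1.13 ± 0.19, adjusted p = 0.0226, limma). Ctsd, which encodes cathepsin D, the main aspartic protease of lysosomes, fell to 2210, 2611, 2142 and 2470 TPM in KO LPS, against 5810, 4319, 4210 and 4705 TPM in WT LPS (-1.01 ± 0.15, adjusted p = 0.0175, limma). The KO mean was 45.6% of the WT mean for Cst3 and 49.5% for Ctsd, with wide gaps between the groups. Without KO LPS 3 the fold changes were -1.14 and -0.96, with adjusted p of 0.0733 and 0.0541 (limma), past the threshold in neither.

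The promoter of Ctsd holds the 8-base CLEAR core TCACGTGA, the element bound by TFEB, and is shown because Ctsd was the lysosomal protease with the clearest fall. The stretch of 60 bases runs over positions -125 to -66 from the annotated start, on the minus strand of GRCm38.p6 (RefSeq), with the core in capitals, and lies at chr7:142387893-142387952.
Ctsd: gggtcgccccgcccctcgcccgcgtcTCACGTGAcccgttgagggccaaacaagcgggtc
The core, which reads the same on both strands, was found in 13 of 86 lysosomal genes with a promoter in the RefSeq table (15.1%) and in 240 of 12207 tested genes (1.97%). Promoters spanned 250 bases before to 50 after the start.

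The rest of the lysosome moved less. Of 22 lysosomal proteases and cystatins, 18 had negative log2 fold changes with a median of -0.23, and Cst3 and Ctsd were the 2 called by limma (5 by voom, all lower). Their summed TPM were 23469, 28325, 24929 and 30421 in KO LPS and 44552, 44334, 40405 and 37687 in WT LPS, again without overlap. These sums include Cst3 and Ctsd, and the separation depends on those 2 genes together. Ctsb, encoding cathepsin B, had 1199.8, 1304, 1112 and 1182 TPM in KO LPS and 1915, 1625, 1767 and 1445 TPM in WT LPS (-0.49 ± 0.11, adjusted p = 0.0722, limma), without overlap. Of 50 hydrolases, sulfatases and lipid-handling genes, Arsb, a sulfatase that breaks down dermatan sulfate, was the 1 called by limma (5 by voom) and rose, with 204, 218, 210 and 311 TPM in KO LPS and 148, 146, 146 and 153 TPM in WT LPS (0.64 ± 0.12, adjusted p = 0.0404, limma). The WT libraries were level and KO LPS 4 was the highest. Hexa (-0.49, adjusted p = 0.0548) and Gm2a (-0.48, adjusted p = 0.0553, limma), which together degrade GM2 ganglioside, separated the groups without passing.

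Among 36 lysosomal membrane proteins the tetraspanin Cd63 was the 1 called by limma (5 by voom), with 156, 196, 156 and 149 TPM in KO LPS and 302, 226, 251 and 213 TPM in WT LPS (-0.59 ± 0.11, adjusted p = 0.0404, limma). Lamp1 (-0.34) and Lamp2 (-0.22), the main membrane glycoproteins, did not pass. Of 19 subunits and partners of the proton pump V-ATPase, 0 were called by limma (4 at an unadjusted p under 0.05, and 1 by voom), with a median of -0.06 and the smallest p for the subunit Tcirg1 (-0.39, adjusted p = 0.0973, limma). Of 44 autophagy and TFEB family genes, 0 were called by limma (3 at an unadjusted p under 0.05, and 1 by voom), the smallest p being that of the kinase Ulk2 (-0.45, adjusted p = 0.0939, limma). Tfeb itself had a log2 fold change of -0.12 and the autophagy receptor Sqstm1 0.11, both with overlap. None of the lysosomal calls was kept without KO LPS 3.

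Cytosolic ribosomal protein genes were higher as a block. Of 81 measured, 80 had a positive log2 fold change, beside 62.8% of all genes, with a median of 0.59, and limma called 21, all higher, beside 0.256% of all genes. Median-of-ratios scaling called 4 and voom 57, all higher. The groups separated with KO higher in 68, beside 4.22% of all genes. Rpl12, of the large subunit, stood at 508, 803, 587 and 659 TPM in KO LPS and at 327, 314, 336 and 247 TPM in WT LPS (log2 fold change 1.05 ± 0.14, adjusted p = 0.0102, limma), and was the 1 ribosomal protein gene called without KO LPS 3. Rps18, of the small subunit, stood at 664, 1054, 790 and 892 TPM in KO LPS and at 494, 467, 488 and 361 TPM in WT LPS (0.90 ± 0.14). Rpl32, also of the large subunit, rose by 0.83. In all 3 genes KO LPS 2 was the highest library and WT LPS 4 the lowest.

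Summed over the 81 genes, ribosomal protein TPM were 65931, 100410, 76608 and 80988 in KO LPS and 57678, 56665, 55835 and 42563 in WT LPS. The sums did not overlap, and WT LPS 4, the library rich in Gm23935, was the lowest. The median of the list was 0.57 after removing that feature from the table and 0.47 without WT LPS 4. The median was 0.60 without KO LPS 3 and lay between 0.47 and 0.68 over all fits that left out 1 LPS library. Ribosomal protein genes have near-identical pseudogene copies, so their reads may be split in counting.

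Other translation genes were higher by less. Of 42 translation factors and other TOP mRNAs, 41 were positive, beside 62.8% of all genes, with a median of 0.22, beside 0.07. Limma called 2, both higher, beside 0.256% of all genes, and voom called 6, beside 1.64% in either direction. With median-of-ratios scaling 1 was called, and the list median was 0.13, beside -0.01 over all genes. Rack1, a scaffold protein of the small subunit, stood at 420, 610, 468 and 465 TPM in KO LPS and at 313, 300, 320 and 238 TPM in WT LPS (0.74 ± 0.12, adjusted p = 0.0192, limma). Eef1b2, an exchange factor of elongation, rose by 0.68 ± 0.13. Both separated the groups, and neither was called without KO LPS 3 (adjusted p of 0.0541 and 0.113, limma).

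The starts of Rps18 and Rack1 are shown because a TOP mRNA is defined by its first bases. Each stretch of 30 bases runs over positions -15 to 14 from the first base of the RefSeq transcript (GRCm38.p6), counted as 0, with the TOP-like start in capitals, from its first C at or near the start to the last pyrimidine. In Rack1 the bases just before the start are pyrimidines too and are not capitalised. Rps18 lies at chr17:33955651-33955680 on the minus strand and Rack1 at chr11:48800345-48800374 on the plus strand.
Rps18: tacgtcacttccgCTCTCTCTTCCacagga
Rack1: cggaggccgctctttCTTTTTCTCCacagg
A TOP-like start, meaning a C within 3 bases of the start followed by at least 4 pyrimidines, was found in 26 of 60 ribosomal protein genes with a promoter in the table (43.3%). It was found in 4 of the 15 called ones (26.7%), in 7 of 31 other translation genes (22.6%) and in 1835 of 12207 tested genes (15.03%). The annotated start decides this count, so a gene without a match here is not shown to lack a TOP start.

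**Figure D4:**
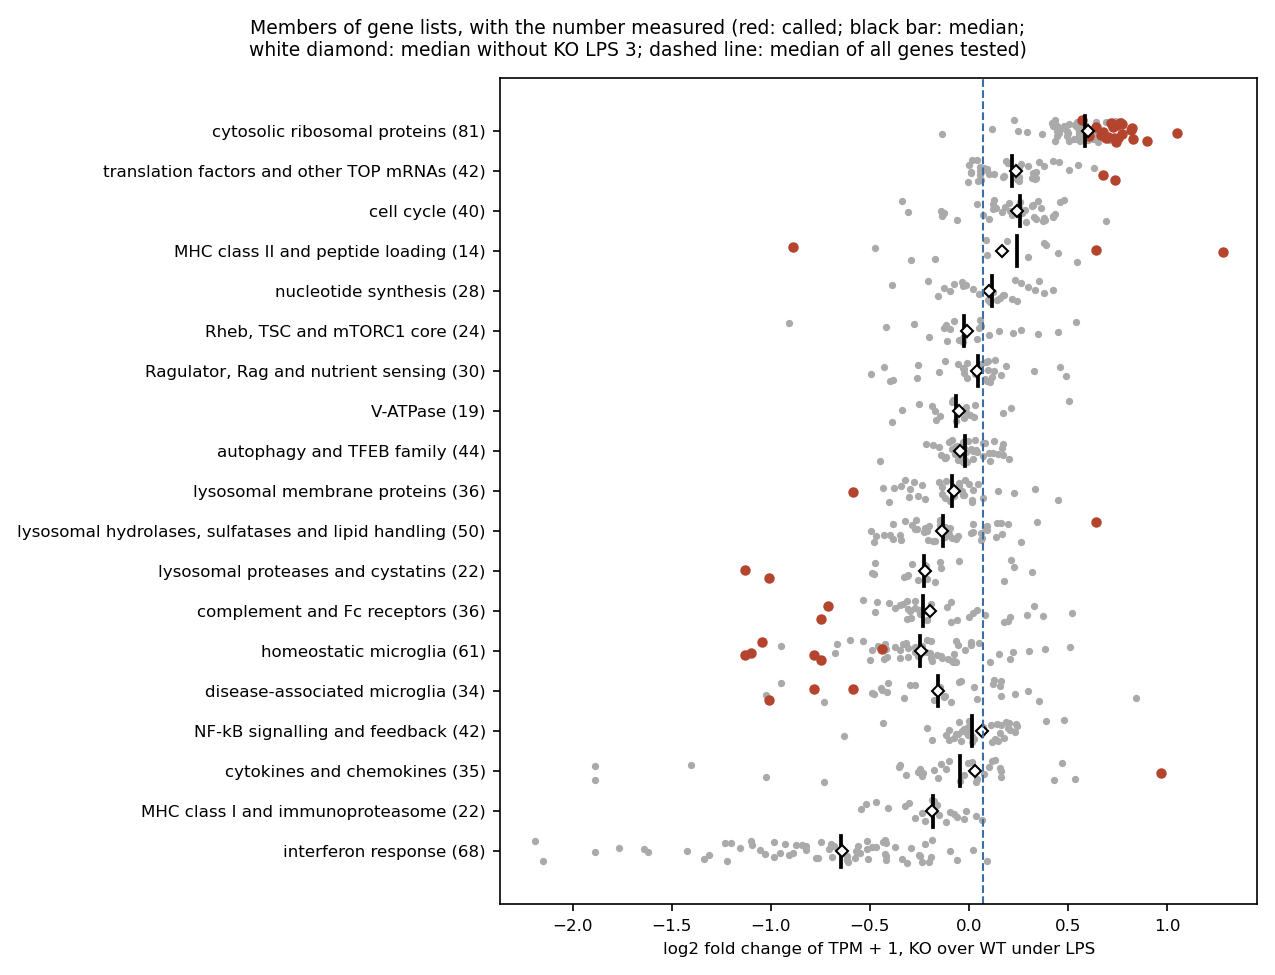
Log2 fold changes of TPM + 1, KO over WT under LPS, for the measured members of 19 gene lists, each list with its median (black bar), its median without KO LPS 3 (white diamond) and called genes in red. The ribosomal protein list is centred at 0.59 and the interferon list at -0.65, while the median of all genes, the dashed line, is 0.07.

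Antigen presentation split between its parts. H2-DMa and H2-DMb2 encode chains of H2-DM, the molecule that loads peptides on MHC class II. H2-DMb2 stood at 34.4, 37.3, 31.0 and 53.8 TPM in KO LPS and at 15.9, 16.2, 15.7 and 13.02 TPM in WT LPS (log2 fold change 1.28 ± 0.17, adjusted p = 0.0102, limma). H2-DMa stood at 85.4, 105, 93.8 and 110 TPM in KO LPS and at 59.7, 74.2, 59.9 and 57.2 TPM in WT LPS (0.64 ± 0.11, adjusted p = 0.0254, limma). Both separated the groups, whereas H2-Ob fell. H2-DMb1, the near-identical copy of H2-DMb2, had 0.08 with overlap, and reads of the pair may be split in counting. Limma called these 3 of the 14 measured class II genes and voom called 4, the further one being Ctss, the cathepsin that trims the invariant chain. Of the 14, 10 had positive log2 fold changes. Their summed TPM ranged from 10530 to 14362 in KO LPS and from 12992 to 17494 in WT LPS, with overlap. Of 22 MHC class I and immunoproteasome genes 0 were called by limma and by voom (4 at an unadjusted p under 0.05). Of these 22, 20 had negative log2 fold changes, with a median of -0.18, and -0.06 without WT LPS 3.

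Among 8 measured sialic acid receptors Cd22 was the 1 called by limma, and voom called 3, 2 of them lower. Siglecf, another inhibitory receptor of the family, stood at the opposite side with a log2 fold change of 0.70 and no overlap, and did not pass by limma (adjusted p = 0.0703). Of 36 complement and Fc receptor genes, 2 fell by limma (4 by voom), Fcrls and C3ar1, the receptor for the complement fragment C3a. C3ar1 had 138, 142, 137 and 148 TPM in KO LPS and 206, 226, 314 and 197 TPM in WT LPS (-0.71 ± 0.14, adjusted p = 0.0422, limma). Its KO libraries were nearly level and WT LPS 3 was the highest. Of 34 disease-associated microglia genes, 3 fell by limma (6 by voom), Ctsd, Cd63 and Serpine2, with a list median of -0.16. These 3 and Fcrls are also counted in the lysosomal or homeostatic lists. Over all genes, limma called 0.24% with KO lower and voom called 1.64% in either direction.

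Interferon-stimulated genes were lower without any passing the test. Of 68 measured, 66 had negative log2 fold changes, whereas 62.8% of all genes had positive ones. The list median was -0.65, and 0 were called by limma and by voom (40 lower at an unadjusted p under 0.05, where 3.94% of all genes were). The groups separated with KO lower in 12 (17.6%), beside 1.96% of all genes. Stat2, a transcription factor of interferon signalling, had 51.8, 36.5, 42.7 and 41.8 TPM in KO LPS and 65.7, 60.9, 130 and 65.7 TPM in WT LPS (-0.82 ± 0.20, adjusted p = 0.0922, limma). Ifit1bl1 had 1.58, 0.514, 0.981 and 0.92 TPM in KO LPS and 4.405, 3.91, 41.7 and 4.69 TPM in WT LPS (adjusted p = 0.102, limma). Both separated the groups, with WT LPS 3 far above the other WT libraries. Summed over the list, the KO LPS libraries held 5449, 4162, 4244 and 3902 TPM and the WT LPS libraries 5485, 5716, 13089 and 4659 TPM. These sums overlapped. Without WT LPS 3 the median of the list was -0.34, and without KO LPS 3 it was -0.64.

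The interferon-stimulated response element, searched as GAAA, any 2 bases and GAAA, is bound by STAT and IRF factors. It was found on either strand in 31 of 57 interferon genes with a promoter in the table (54.4%) and in 475 of 12207 tested genes (3.89%).

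Cytokines and chemokines did not move as a group. Il6 was the 1 called of 35, and the median of the list was -0.04. Tnf stood at 286, 120, 78.2 and 126 TPM in KO LPS and at 94.0, 65.7, 329 and 134 TPM in WT LPS, and Il1b at 820, 432, 348 and 521 TPM in KO LPS and 426, 389, 1375 and 578 TPM in WT LPS. In both genes 1 library of each group, KO LPS 1 and WT LPS 3, lay above the rest, and the groups overlapped (adjusted p of 0.972 and 0.838, limma). Besides Il6, the chemokine Ccl5 was the 1 member whose groups did not overlap (-1.40, adjusted p = 0.116, limma). That is 2.86% of the list in each direction, near the 4.22% of all genes with KO higher and the 1.96% with KO lower. Of 42 NF-kB genes, 0 were called by limma and by voom (3 at an unadjusted p under 0.05), and of 33 LPS sensing genes, 0 by both (6 at an unadjusted p under 0.05). Ly96, the co-receptor of TLR4, had the smallest p of the sensing list, at -0.33 ± 0.07 (adjusted p = 0.0606, limma).

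**Figure D5:**
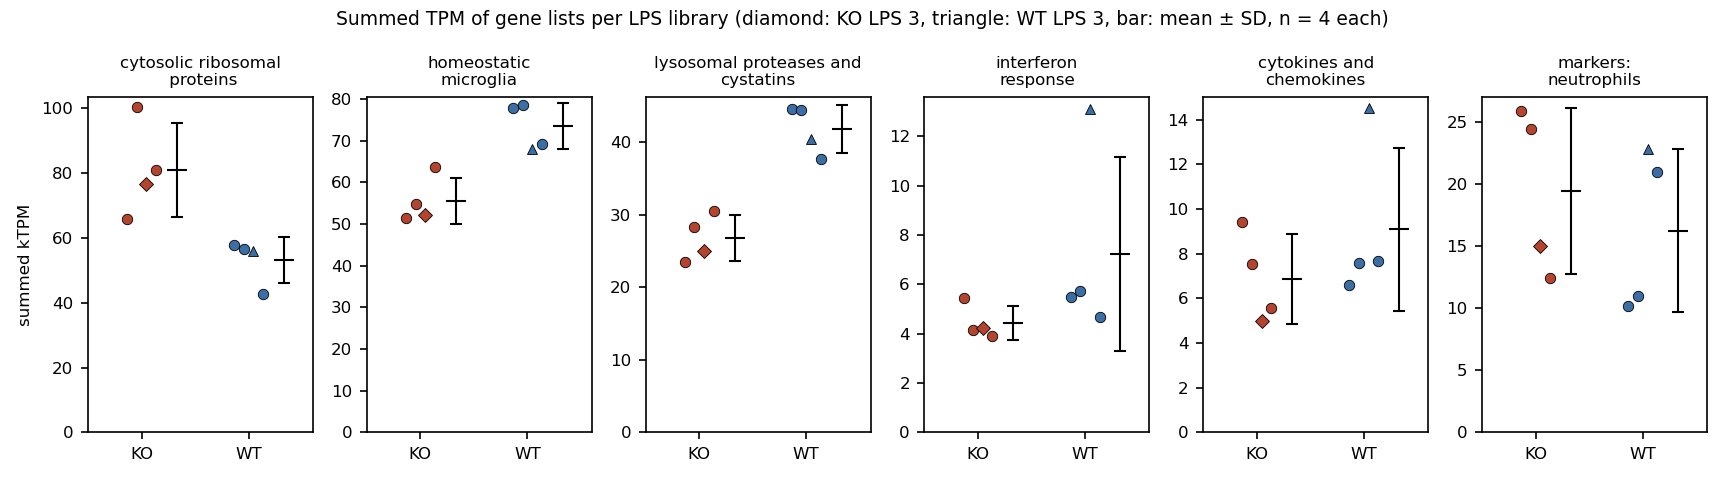
Summed TPM (axis in kTPM, kilo-TPM) of 6 gene lists in the 4 KO LPS libraries (left) and the 4 WT LPS libraries (right), with the mean and SD as a bar. Ribosomal protein, homeostatic and lysosomal protease sums separate the groups. The homeostatic sum includes Cst3 and the lysosomal protease sum includes Cst3 and Ctsd, and neither separates without them. The WT triangle (WT LPS 3) stands at 13.1 for interferon genes, and neutrophil markers overlap.

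Of metabolic genes, Cox6a2, an isoform of a cytochrome c oxidase subunit best known from muscle, was the 1 called of 76 nuclear-encoded genes of oxidative phosphorylation. It fell to 2.91, 2.20, 2.61 and 1.83 TPM in KO LPS, against 16.9, 5.23, 16.4 and 12.8 TPM in WT LPS (log2 fold change -1.93 ± 0.29, adjusted p = 0.0175, limma). The WT libraries varied more than the KO libraries but did not overlap them. Nothing was called by limma among the 41 measured genes of ATF4 targets and amino acid transport (11 at an unadjusted p under 0.05, and 2 by voom), where Psat1, of serine synthesis, had the smallest p (-0.86, adjusted p = 0.0553, limma). The same held for 28 nucleotide synthesis genes (4 at an unadjusted p under 0.05, and 0 by voom), where the purine enzyme Gart had 0.38 (adjusted p = 0.0722, limma). In 9 further lists, which covered the unfolded protein response, lipid synthesis and efflux, glycolysis, mitochondrial mRNAs, the proteasome, iron, the clock and dissociation stress, 0 of 258 members were called by limma (28 at an unadjusted p under 0.05, a share near the 11.7% of all genes, and 4 by voom). Cell cycle genes had a median of 0.26 with 34 of 40 positive and 0 called by limma (5 at an unadjusted p under 0.05, and 1 by voom).

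Of the remaining large changes, Kcnj9, a potassium channel subunit, fell to 2.08, 0.929, 2.24 and 2.23 TPM in KO LPS, against 7.49, 7.04, 4.85 and 7.48 TPM in WT LPS (-1.44 ± 0.25). The T-box factor Tbx6 (-1.42) and the Cdc42 effector Cdc42ep3 (-1.22) also fell, and Maml3, a Notch co-activator, rose (0.81). Each separated the groups, and none was called without KO LPS 3. Snord42b, a small nucleolar RNA, was listed at 5.74, 9.62, 4.28 and 12.05 TPM in KO LPS, and at 0 in 3 WT LPS libraries and 3.56 TPM in WT LPS 2 (adjusted p = 0.0309, limma).

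Markers of other cell types were not called. None of the 12 marker lists, with 135 measured genes, held a called gene by limma or by voom. Limma called 0.497% of all genes, so 0 of 135 is near that share. At an unadjusted p under 0.05 there were 7 of the 135, beside 11.7% of all genes. Neutrophil markers, summed, ranged from 12443 to 25942 TPM in KO LPS and from 10173 to 22824 TPM in WT LPS. Monocyte markers ranged from 3172 to 4280 TPM in KO LPS and from 3496 to 4868 TPM in WT LPS, the highest being WT LPS 3. Choroid plexus and ependymal markers ranged from 4087 to 14827 TPM in KO LPS and from 2417 to 8989 TPM in WT LPS, with a list median of 0.46. Pituitary markers had a median of 1.10 with all libraries and 0.01 without KO LPS 3, and neuron markers 0.71 and 0.42. All 7 measured neuron markers were positive, beside 62.8% of all genes, and 3 separated the groups with KO higher, beside 4.22%. Of 12 border-associated macrophage markers 11 were positive (median 0.28). Negative were 16 of 18 endothelial and mural, 10 of 12 oligodendrocyte and 6 of 7 erythroid markers. The part of these cell types in the called genes was not tested beyond leaving out libraries.

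Under PBS the same contrast uses none of the 8 LPS libraries, although both contrasts share 1 estimate of the spread, and it called 191 genes (1.02%). The WT PBS group includes the library with Gh at 78126 TPM. The direction matched that of LPS in 84 of the 93 LPS calls, and 27 of them were also called, 20 higher and 7 lower. The share of all genes with matching directions was not computed, so the 84 have no background to be read against. Rpl12 had log2 fold changes of 1.05 under LPS and 0.96 under PBS, Epha2 1.08 and 1.09, Cd22 -1.5 and -1.33, and H2-Ob -0.89 and -1.30. Ctsd had -1.01 under LPS and -0.38 under PBS (adjusted p = 0.313, limma), and Fcrls -0.75 and 0.03. The difference between the contrasts was called by limma for 0 genes (1780, or 9.51%, at an unadjusted p under 0.05, and 0 by voom), with a smallest adjusted p of 0.0741. Sex, as read from Xist, and treatment run together across these libraries and cannot be told apart in that difference. Gm23935 divided the libraries in the same way, at 40440 to 153781 TPM under LPS and 566 to 2477 TPM under PBS.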

How the data were processed

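Total RNA of bead-purified mouse microglia was sequenced. Per the submitters' processing notes, the tools included STAR 2.7.10b, featureCounts 2.0.1, FastQC 0.11.9 and cutadapt 4.4. These notes name the human build hg38, whereas the table carries mouse gene IDs. The authors deposited TPM for 41739 genes. Strand is not given in the sources used here. Depth was recovered as whole reads from TPM times GENCODE M21 exon-union length, within 0.02 reads for 98.4% to 98.6% of values. Arithmetic on simulated reads recovered 100% of 41672 genes.

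Log2(TPM + 1) entered limma 3.58.1 (R 4.3.3) with all 14 libraries, 4 group means and an intensity trend, for the 18724 genes with at least 1 TPM in at least 3 libraries. P-values were adjusted by Benjamini and Hochberg over all of these, with calls made under 0.05. Fold changes on this scale understate changes of low genes. The limma step was tested on simulated data. Calls, named genes and list medians were recomputed without KO LPS 3 and under the settings of the closing section. Genes named were those called with and without KO LPS 3, the 10 largest rises and falls among called, named genes of at least 5 TPM without overlap, up to 4 called members per list and direction (otherwise the 2 with the smallest p), and a fixed set around Rheb, lysosomes and cytokines. H2-DMb1, P2ry12, Cx3cr1, Csf1r, Hexa, Gm2a, Ccl5, Siglecf, Ctss, Cd79b, Ighm, Snord42b, Gm22655, Gm23935 and the genes of the last section were added after their values were seen. Some members the rule selects are not reported here. The comparison, members and lists were chosen with earlier results of these data known.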

Additional observations from a re-analysis of the deposited data

Results flagged for a closer look

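A library was singled out where its gap to the nearest of its group exceeded the limit expected of 4 values, which chance alone passes in about 1 of 20 groups. Of 178 groups, 26 had such a library.

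WT LPS 3 held the highest WT value of Il6 (14.6 TPM), Stat2 (130 TPM) and Ifit1bl1 (41.7 TPM), and the lowest of Kcnj9 (4.85 TPM). It also held the highest WT sums of interferon response genes (13089 TPM), cytokines and chemokines (14522 TPM), LPS sensing genes (11487 TPM) and monocyte markers (4868 TPM).

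WT LPS 4 held the lowest WT value of Ptgfrn (27.6 TPM), H2-DMb2 (13.02 TPM), Rpl32 (728 TPM) and Ogt (119 TPM). Its ribosomal protein sum of 42563 TPM was the lowest of the WT LPS libraries, and its erythroid marker sum of 599.8 TPM was the highest.

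KO LPS 3 held the pituitary transcripts Gh (19672 TPM), Prl (7067 TPM) and Pomc (4724 TPM), with a pituitary marker sum of 33037 TPM. KO LPS 4, the shallowest library, was the highest KO library for Tmem119 (1016 TPM), Arsb (311 TPM) and Ulk2 (102 TPM). KO LPS 2 was the lowest for Kcnj9 (0.929 TPM) and the highest for Cd63 (196 TPM), and KO LPS 1 had the highest oligodendrocyte marker sum (675 TPM). Among the WT libraries, WT LPS 2 was the highest for H2-DMa (74.2 TPM) and WT LPS 1 for Tfeb (21.3 TPM). The causes of these values were not tested.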

How the results depend on the processing

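The count of 93 called genes moved with the settings. It was 32 with no filter on low TPM, 141 with a filter of 5 TPM, 172 with median-of-ratios scaling, 211 with quantile normalisation and 163 without Gm23935. It was 52 without mitochondrial, ribosomal protein and haemoglobin genes, 47 with no intensity trend, 168 with library weights and 307 with voom on recovered reads. It was 0 with the 8 LPS libraries alone, 0 with the replicate block in those libraries and 0 against a fold limit of 1.2 (limma, with 1827, 1364 and 554 at an unadjusted p under 0.05). Leaving out 1 LPS library gave 18 to 99 calls. The count moved by over 1.5 times without KO LPS 2 (41), KO LPS 3 (18), WT LPS 1 (33), WT LPS 2 (42), WT LPS 3 (50) and WT LPS 4 (42). It was 8 without both KO LPS 3 and the WT PBS library with pituitary transcripts, and 1 in the LPS libraries alone without KO LPS 3, a setting added after seeing the data. All 93 kept their sign in each of these settings where all were tested. Leaving out libraries could not turn the sign of genes without overlap. The fits with the 8 LPS libraries alone, the replicate block, no trend or the fold limit keep the same fold changes. Same-numbered libraries correlated at -0.09 to 0.06 and share only a number.

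Under LPS, Rheb passed the test with median-of-ratios scaling (-0.51) and quantile normalisation (-0.46). The difference between the LPS and PBS contrasts called 3 genes with a pseudocount of 0.1, 1 with a pseudocount of 5, 1 with no filter, 2 with median-of-ratios scaling and 1 each with quantile normalisation, without Gm23935, with no trend and with library weights. It called 3 without that pair, and 0 to 2 with 1 LPS library left out. Signs turned for H2-DMb1 (-0.00568 with median-of-ratios scaling) and Mtor (-0.0244 with median-of-ratios scaling, -0.0012 with quantile normalisation). They also turned for Il1b (0.0109 with library weights, 0.14 without WT LPS 3, and -0.49 to 0.14 over the libraries left out) and Tnf (-0.0155 with median-of-ratios scaling, -0.28 without KO LPS 1, -0.07 without WT LPS 1, -0.24 without WT LPS 2, and -0.28 to 0.52 over the libraries left out). None of these 4 genes was called in the main comparison. The causes were not tested. KO LPS 4, at 7998451 reads, limits the precision of low genes.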

Other observations

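Among the called genes outside every list, several have known roles in lysosomes or membranes, and these were chosen after their values were seen. Itm2b, a membrane protein whose mutations cause familial dementias, fell to 1703, 1719, 1722 and 1784 TPM in KO LPS, against 3016, 3042, 2459.7 and 2347 TPM in WT LPS (log2 fold change -0.64, adjusted p = 0.0275, limma). Its KO libraries were nearly level. Creg1, a secreted glycoprotein found in lysosomes, had 148, 172, 149 and 182 TPM in KO LPS and 243, 258, 209 and 217 TPM in WT LPS (-0.51, adjusted p = 0.0401, limma). Cln8, a protein of the endoplasmic reticulum that helps lysosomal enzymes leave it, had 22.3, 13.99, 18.2 and 19.5 TPM in KO LPS and 35.4, 32.1, 29.8 and 25.1 TPM in WT LPS (-0.70, adjusted p = 0.0407, limma). Both separated the groups.

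Hacd4, a dehydratase of fatty acid elongation, fell by 0.74 on the log2 scale (adjusted p = 0.0139, limma), and Ogt, which attaches N-acetylglucosamine to proteins, rose by 0.55 (adjusted p = 0.0407, limma). Xist, the RNA that silences an X chromosome, stood at 479, 354, 499 and 574 TPM in KO LPS and at 298, 329, 310 and 255 TPM in WT LPS (0.66, adjusted p = 0.0422, limma). Without KO LPS 3 the adjusted p was 0.113 for Creg1 and Cln8, 0.117 for Ogt, 0.124 for Xist, 0.088 for Itm2b and 0.0518 for Hacd4 (limma).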
